A study of Mus musculus with 4 samples.

Results

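St8sia1, Lrig1, Krt83, Cd7, Nrarp and Qpct are 6 of the 31253 genes listed in the files, named because their transcripts were less abundant in tumour CD8+ T cells of 18-month-old donors than in those of 8-week-old donors. The members were chosen by this measured difference in level between the Aged and Young libraries, by name and with no cutoff, so its values are given as a description. The data were 4 droplet single-cell RNA libraries (10x Genomics) made from sorted CD45+ CD8+ T cells of mouse tumours, which were grown from the bladder carcinoma cell line MB49. Each library pooled 3 mice and each group had 1 library, so the variation between mice could not be measured and no test between groups was possible. In the Aged and Young groups, CD8+ T cells of donors aged 18 months or 8 weeks were injected into a vein of Rag1-deficient hosts at the time of tumour inoculation, on the same day. These hosts lack T and B cells of their own and were 8 to 10 weeks old in both groups. Their strain is labelled B6.129S7-Rag1tm1Mom/J for Aged and B6.129S7-Rag1tm0Mom/J for Young. The KO and WT groups came from subcutaneous MB49 tumours in mice of the C57BL/6Slac strain aged 10 to 12 weeks, with Bfar deleted in CD8+ T cells (KO) or wild type (WT). The labels used here do not name the Cre driver of the KO mice or the strain and sex of the transferred cells' donors.

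Nrarp is a direct target of Notch signalling and its product binds the nuclear Notch complex, which limits the signal. St8sia1 encodes the sialyltransferase that makes the ganglioside GD3 from GM3. Qpct encodes glutaminyl-peptide cyclotransferase, an enzyme of the secretory pathway that closes an N-terminal glutamine into pyroglutamate. Cd7 encodes an immunoglobulin-family surface protein of T and NK cells, Lrig1 a membrane protein that limits ErbB receptor signalling and marks quiescent epithelial stem cells, and Krt83 a type II hair keratin. They were set beside Itgae, which encodes the CD103 integrin chain that binds E-cadherin, and Ifitm1, an interferon-induced membrane protein, both often used to describe T cells that stay in tissues.

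Levels are unique molecular identifier (UMI) counts summed over all barcodes with at least 1 UMI of a CD3 gene and at least 1 of a CD8 gene, per 1000000 UMIs of those barcodes (CPM). Library totals ran from 68017515 to 85401443 UMIs. After filters for depth and mitochondrial share, 8252 of 8798 Aged, 9803 of 10538 Young, 8153 of 8410 KO and 8966 of 9405 WT barcodes held both CD3 and CD8. Median depth in these was 5768 UMIs in Aged, 4510 in Young, 6870 in KO and 6341 in WT. Some barcodes in this gate also held transcripts that do not belong to CD8+ T cells. Cd4 was seen in 2.90% of Aged and 0.255% of Young barcodes, Trdc of gamma-delta T cells in 0.527% of KO and 2.55% of WT, and Foxp3 of regulatory T cells in 1.51% of KO and 0.881% of WT. At least 2 UMIs of another cell type's markers stood in 6.92% of Aged, 9.04% of Young, 2.97% of KO and 5.81% of WT barcodes. The Aged and Young libraries shared 145 barcode sequences and the KO and WT libraries 20. All intervals are 95% intervals for counting error only. The kits differed between the pairs, so levels were compared within a pair.

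The members lie at separate places in mm10 (GENCODE M21 annotation), apart from St8sia1 and Lrig1, which share chromosome 6. Nrarp is a gene of 1 exon at chr2:25180758-25183339 on the plus strand, and a gene model on the other strand, Gm38287, overlaps it. St8sia1 (chr6:142821545-142964452, minus strand) has up to 5 exons and Lrig1 (chr6:94604529-94700158, minus) up to 20. Qpct lies at chr17:79051906-79090378 on the plus strand with up to 7 exons, Cd7 at chr11:121036747-121039418 on the minus strand with up to 4, and Krt83 at chr15:101485130-101491512 on the minus strand with up to 9. Genes or gene models on the other strand also overlap Lrig1 (Slc25a26), Cd7 (Gm11775) and St8sia1 (Gm7457). Krt83 belongs to a family of closely similar hair keratins, so reads could have been split between copies and its level is uncertain.

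Promoters were available in the RefSeq table (GRCm38.p6) for 3 of the 6 members, and the 250 bases before each start are shown. The members were chosen because they were lower in Aged, so the windows are given as a description only. Capitals mark the GC box, the motif bound by Sp1 (GGGCGG on either strand), and the palindromic E-box CACGTG. The Notch-effector motif of RBPJ, searched as TGGGAA on either strand, is not in these windows.
St8sia1, chr6:142964453-142964702, minus strand: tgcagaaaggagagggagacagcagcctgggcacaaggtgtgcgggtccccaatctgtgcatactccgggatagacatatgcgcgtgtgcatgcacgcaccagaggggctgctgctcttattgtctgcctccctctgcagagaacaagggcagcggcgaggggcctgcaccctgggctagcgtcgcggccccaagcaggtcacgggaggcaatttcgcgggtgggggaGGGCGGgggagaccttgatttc
Lrig1, chr6:94700146-94700395, minus strand: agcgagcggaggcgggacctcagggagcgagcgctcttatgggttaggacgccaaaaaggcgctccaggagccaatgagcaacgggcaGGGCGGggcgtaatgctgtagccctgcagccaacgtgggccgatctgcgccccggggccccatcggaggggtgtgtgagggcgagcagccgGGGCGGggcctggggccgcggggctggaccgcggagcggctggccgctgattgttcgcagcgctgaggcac
Nrarp, chr2:25180508-25180757, plus strand: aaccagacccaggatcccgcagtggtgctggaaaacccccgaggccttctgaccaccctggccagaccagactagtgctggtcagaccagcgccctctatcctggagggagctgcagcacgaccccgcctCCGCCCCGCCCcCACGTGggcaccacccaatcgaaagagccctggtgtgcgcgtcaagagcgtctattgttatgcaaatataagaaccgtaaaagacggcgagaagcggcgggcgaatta
The St8sia1 window held 1 GC box, the Lrig1 window 2, and the Nrarp window 2 that overlap each other and 1 E-box. Of 32851 promoter windows of this length, 32.7% held a GC box, 6.02% the E-box and 21.6% the RBPJ letters, and the 3 windows were rich in G and C (61.2% to 71.6%). The RefSeq start of Lrig1 lies inside the GENCODE gene, so its window overlaps the first bases of that gene. A match is a description of the letters, not of a bound site.

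Nrarp had the highest level of the 6 in the transferred cells. It stood at 71.2 CPM (69.2 to 73.3) in Aged against 132 CPM (129 to 135) in Young, a ratio of 0.539 (0.520 to 0.559). In the other pair it stood at 30.3 CPM (29.0 to 31.6) in KO against 40.0 CPM (38.6 to 41.4) in WT, a ratio of 0.758 (0.717 to 0.801). Nrarp was thus the lower of the pair in both Aged and KO, and by more in Aged. Gm38287 on the opposite strand stood at 15.3 CPM in Aged and 24.7 in Young, against 1.23 in KO and 1.46 in WT. The sources used here do not say how the counting treated strand, so reads of this overlap could be shared. The same holds for Lrig1, where Slc25a26 on the opposite strand stood at 6.43 CPM in Aged and 5.81 in Young.

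The enzymes St8sia1 and Qpct were scarcer. St8sia1 stood at 8.31 CPM (7.62 to 9.04) in Aged against 19.2 CPM (18.1 to 20.3) in Young, a ratio of 0.433 (0.390 to 0.480) and the lowest of the 6. It was higher in KO, at 21.6 CPM (20.5 to 22.7), than in WT, at 16.2 CPM (15.3 to 17.1), with a ratio of 1.33 (1.23 to 1.44). The gene of GD3 synthesis therefore ran in opposite directions in the pairs. Qpct stood at 15.7 CPM (14.7 to 16.7) in Aged against 32.9 CPM (31.4 to 34.3) in Young, a ratio of 0.477 (0.442 to 0.515). In KO it stood at 29.5 CPM and in WT at 27.3 CPM, a ratio of 1.08 (1.02 to 1.15).

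The genes of the surface proteins, Cd7 and Lrig1, had close ratios in the transferred cells, as did the keratin gene Krt83 (0.506). This contrast chose the members, so nothing is read from the closeness. Cd7 stood at 60.4 CPM (58.5 to 62.3) in Aged against 119 CPM (116 to 122) in Young, a ratio of 0.508 (0.488 to 0.528). Lrig1 stood at 14.4 CPM (13.5 to 15.4) in Aged against 28.6 CPM (27.3 to 30.0) in Young, a ratio of 0.504 (0.465 to 0.546). Neither was far apart in the other pair. Cd7 stood at 83.6 CPM in KO against 85.9 CPM in WT, with a ratio of 0.974 and an interval (0.940 to 1.01) that includes 1. Lrig1 stood at 14.5 CPM in KO against 15.8 CPM in WT, a ratio of 0.915 (0.840 to 0.995).

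The keratin Krt83 stood at 39.5 CPM (38.0 to 41.1) in Aged against 78.1 CPM (75.9 to 80.4) in Young, a ratio of 0.506 (0.482 to 0.531). It was the most abundant member in the other pair, at 144 CPM (142 to 147) in KO against 100.1 CPM (97.9 to 102) in WT, a ratio of 1.44 (1.40 to 1.49). Among the members it thus showed the largest excess in KO. Of 25 type II keratins, only Krt83 and Krt8 were measured in the Aged and Young pair. Krt8, a keratin of simple epithelia, stood at 21.3 CPM in Aged against 82.0 CPM in Young, and at 45.7 CPM in KO against 148 CPM in WT. All 5 tumour or epithelial markers were seen in every library, summing to 48.8 CPM in Aged, 192 in Young, 114 in KO and 346 in WT. In barcodes with at least 10 UMIs of tumour or fibroblast markers and no CD3 or CD8, thinned to 2000 UMIs, Krt83 was in 0 of 120 in Aged and 0 of 137 in Young, which allows a share of up to 2.50% in Aged and 2.19% in Young.

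**Figure D1:**
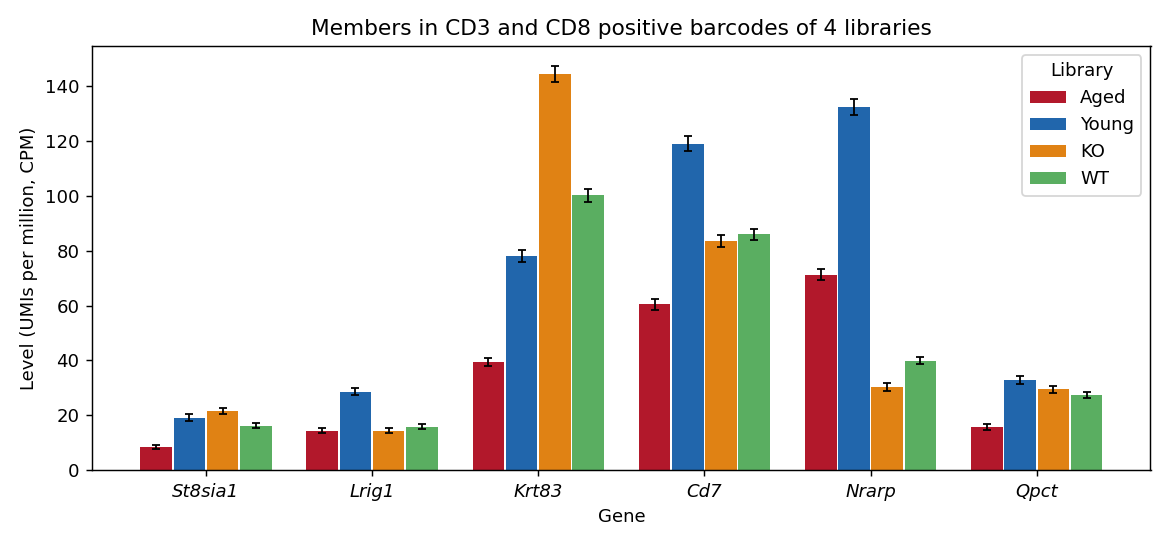
Level of each gene in CPM (bars, linear axis from 0) in the CD3 and CD8 positive barcodes of the Aged, Young, KO and WT libraries, with 95% counting intervals. The Aged bar is below the Young bar for all 6 genes, while KO is above WT for Krt83 (144 CPM in KO, 100.1 in WT) and St8sia1 (21.6 in KO, 16.2 in WT) and below it for Nrarp (30.3 in KO, 40.0 in WT).

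Measured genes were those with 20 or more UMIs summed over a pair and 10 or more CPM in 1 of its libraries. Of 7938 measured genes, 304 (3.83%) were at least 1.5 times lower in Aged and 208 (2.62%) at least 1.5 times higher. That split moved with the scaling, to 163 lower and 235 higher in Aged with barcodes thinned to 2000 UMIs, and to 346 lower and 155 higher with median-of-ratios scaling. The 6 members, all lower by more than 1.5 times, ranked between 137 and 178 from the lowest ratio. With barcodes that held both Itgae and Ifitm1, either alone or neither weighted equally, 3 members passed that fold, while St8sia1 (0.691), Lrig1 (0.686) and Qpct (0.715) did not. Since this contrast chose the members, nothing is read from the count. Their median log2 ratio was −0.97, with a pseudocount of 1 CPM, beside a median of 0.08 over all measured genes. Itgae and Ifitm1 stood further down, at ratios of 0.198 (0.180 to 0.218) and 0.334 (0.329 to 0.340). The KO and WT pair, which the choice of members did not use, held 7415 measured genes, of which 229 (3.09%) were at least 1.5 times lower in KO and 45 (0.607%) at least 1.5 times higher. Thinned, the split there was 89 lower and 42 higher in KO. No member passed that fold in either direction, and their median log2 ratio of 0.03 lay beside −0.05 over all measured genes. Itgae there had a ratio of 1.20 (1.15 to 1.24) and Ifitm1 of 1.62 (1.61 to 1.64).

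**Figure D2:**
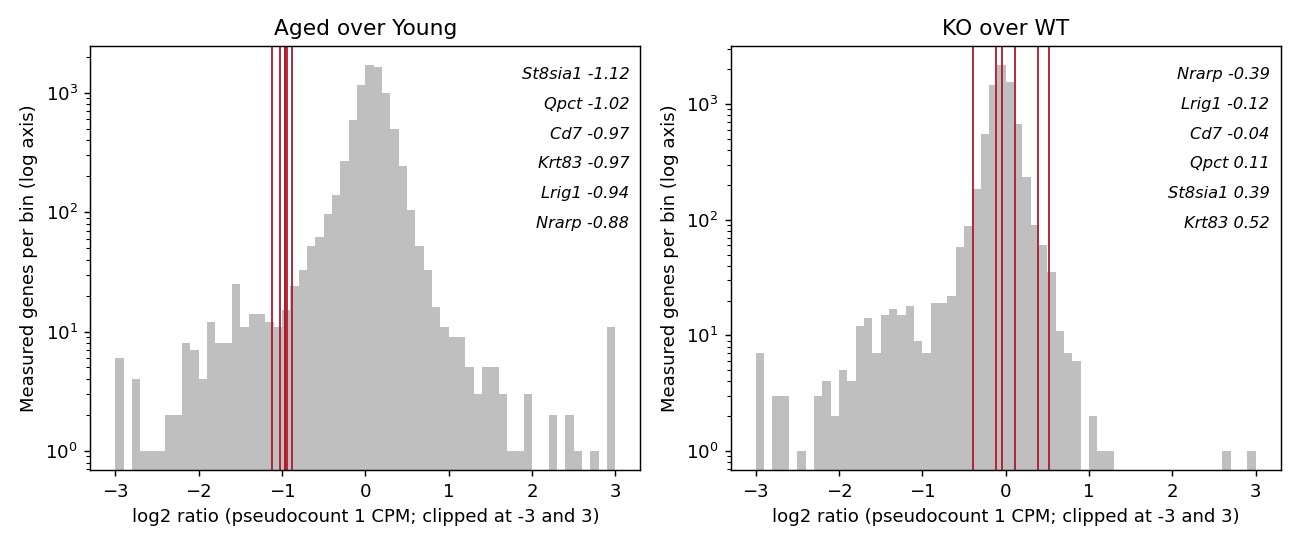
Histograms of the log2 ratio of all measured genes (pseudocount 1 CPM, log axis of gene numbers), Aged over Young and KO over WT, with the 6 members as red lines and their values listed. The members sit close together between −1.12 and −0.88 in the transferred pair and spread between −0.39 and 0.52 in the other.

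The same order showed in the share of barcodes with a UMI, after each barcode was thinned to 2000 UMIs so that depth was equal. This left out 201 Aged, 611 Young, 45 KO and 80 WT barcodes with fewer UMIs. Nrarp was seen in 14.6% of Aged (13.8 to 15.4) and 23.0% of Young barcodes (22.1 to 23.9). Cd7 was seen in 11.3% of Aged (10.6 to 12.0) and 17.3% of Young (16.6 to 18.1). Krt83 was seen in 7.87% of Aged (7.30 to 8.48) and 14.9% of Young (14.2 to 15.6). The scarcer members were each in a few percent of barcodes. Lrig1 was seen in 3.43% of Aged and 6.61% of Young barcodes, Qpct in 3.39% of Aged and 6.42% of Young, and St8sia1 in 1.57% of Aged and 3.97% of Young, with intervals of the libraries apart in each case. Without thinning the shares were larger, from 4.73% (St8sia1) to 32.5% (Nrarp) in Aged and from 9.01% to 41.4% in Young. Among positive barcodes the thinned counts per barcode were 1.28 UMIs of Cd7 in Aged and 1.46 in Young, and 1.24 UMIs of Nrarp in Aged and 1.35 in Young. Most positive barcodes held 1 UMI at this depth, 80.2% in Aged and 71.4% in Young for Cd7. For Nrarp it was 82.3% in Aged and 75.1% in Young. A positive barcode cannot hold less than 1 UMI, so nothing is read from how little these counts differed.

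In the other pair, thinned shares were 19.3% in KO and 16.2% in WT for Krt83, 11.8% in KO and 13.3% in WT for Cd7, and 5.43% in KO and 7.45% in WT for Nrarp. St8sia1, Lrig1 and Qpct were each in 2.71% to 6.19% of KO barcodes and in 3.71% to 5.58% of WT barcodes. For Cd7 and Lrig1 the share in KO was below that in WT although the levels were close. Lrig1 was seen in 2.71% of KO (2.37 to 3.09) and 3.71% of WT (3.33 to 4.13). For St8sia1 the shares of 4.23% in KO (3.80 to 4.69) and 3.71% in WT (3.33 to 4.13) had overlapping intervals, although its level was higher in KO.

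Barcodes with tumour or fibroblast markers and no CD3 or CD8 were set beside the T cells. They may express Lrig1 and Nrarp themselves, so for these genes they are no measure of background. Where none was seen, the limit given is 3 barcodes of the total. In these barcodes, thinned, St8sia1 was in 0 of 120 in Aged and 0 of 137 in Young, as for Krt83. The Aged share of St8sia1 in T cells lay under the 2.50% that this allows, so background could not be separated from it at this number of barcodes. Lrig1 was in 1.67% (0.202 to 5.89) of such Aged barcodes and 1.46% (0.177 to 5.17) of such Young ones. Nrarp was in 5.83% of the Aged and 4.38% of the Young ones. All these shares were below those in the T cell gate of the same library. The Aged interval of Lrig1 includes its T cell share of 3.43%, so these were not separated. Unthinned, Lrig1 was in 21.8% of the Aged ones and Nrarp in 18.5% of the Aged and 24.6% of the Young ones. In CPM, Lrig1 stood at 11.1 in these Aged barcodes and 11.2 in the Young ones, close to its 14.4 CPM in Aged T cells, and these barcodes were deep (medians of 23475 UMIs in Aged and 23302.5 in Young). Cd7 was in 0 of the Aged and 0.730% of the Young ones, and Qpct in 0.833% of the Aged and 0 of the Young ones, with the same limits where none was seen.

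The ratios were also taken without barcodes holding markers of other cell types, whose part in the full ratios was not tested further. Without them the Aged to Young ratios were 0.415 for St8sia1, 0.460 for Lrig1, 0.493 for Krt83, 0.475 for Cd7, 0.497 for Nrarp and 0.506 for Qpct. Each member was as low or nearly as low in Aged without these barcodes. In the other pair the same step gave 1.24 for St8sia1, 1.32 for Krt83 and 0.889 for Cd7, closer to 1 for St8sia1 and Krt83 and further from it for Cd7. Without the shared barcodes the Aged to Young ratios ran from 0.438 (St8sia1) to 0.539 (Nrarp).

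Itgae and Ifitm1 positive cells were themselves rare in Aged, so the members were compared inside 4 classes of barcodes, unthinned. Aged had 55 barcodes with both genes, 137 with Itgae only, 683 with Ifitm1 only and 7377 with neither. Young had 400 with both, 386 with Itgae only, 1645 with Ifitm1 only and 7372 with neither. In the class with neither, every member was lower in Aged, with ratios from 0.435 for Lrig1 (0.397 to 0.475) to 0.535 for Qpct (0.488 to 0.587). All 6 were at least 1.5 times lower there, as were 3.2% of all measured genes. This class held 89.4% of Aged and 75.2% of Young barcodes and so repeats much of the contrast that chose the members, and nothing is read from this count. The single ratio above 1 over the 4 classes was that of Lrig1 in barcodes with Itgae only, at 16.4 CPM in Aged against 15.9 CPM in Young, a ratio of 1.03 (0.657 to 1.58).

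Members differed in how they followed these classes. In the transferred pair St8sia1 was higher with Ifitm1 alone than with Itgae alone or with neither. It stood at 21.5 CPM in Aged barcodes with Ifitm1 only and 6.32 CPM in those with neither, and at 32.7 and 13.9 CPM in the same Young classes. In the other pair the class with Itgae alone had more of it than the class with Ifitm1 alone. With Itgae alone it stood at 33.3 CPM in KO against 25.8 CPM in WT, and with Ifitm1 alone at 19.99 CPM in KO against 14.6 CPM in WT. Qpct was highest with Itgae, at 54.5 CPM in Aged barcodes with Itgae only and 14.2 CPM in those with neither, and at 80.3 and 26.5 CPM in the Young classes. In barcodes with both genes its Aged level of 51.3 CPM was close to the Young level of 53.5 CPM, with a ratio of 0.958 (0.632 to 1.40) from 30 Aged UMIs. Itgae and Qpct were also seen in barcodes with myeloid markers and no CD3 or CD8. There Itgae stood at 156 CPM in Aged (13 barcodes) and 261 CPM in Young (21 barcodes), and Qpct at 82.6 and 86.0 CPM. The part of such cells in the Qpct levels by class was not tested. Nrarp was lower with Itgae, at 36.5 CPM in Aged against 57.2 CPM in Young where Itgae was seen alone, against 72.7 CPM in Aged against 146 CPM in Young with neither. Cd7 stood at 55.6 CPM with Itgae alone and 58.4 CPM (56.4 to 60.5) with neither in Aged, but at 75.4 CPM (69.1 to 82.1) with Ifitm1 alone and 85.5 CPM (63.4 to 113) with both. In Young it was close to 119 CPM in all 4 classes, from 116 to 122 CPM.

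In the other pair Cd7 was different across the same classes, at 168 CPM with Itgae only and 65.3 CPM with neither in KO, and at 180 CPM and 67.5 CPM in WT. Krt83 was higher in KO in every class, from 1.31 (1.25 to 1.38) with neither to 1.68 (1.58 to 1.79) with Itgae only, where it stood at 263 CPM in KO against 156 CPM in WT. Nrarp was lower in KO in every class, from 0.652 (0.533 to 0.796) to 0.815 (0.754 to 0.880). St8sia1 was higher in KO in every class, from 1.26 (1.09 to 1.47) to 1.37 (1.15 to 1.64).

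**Figure D3:**
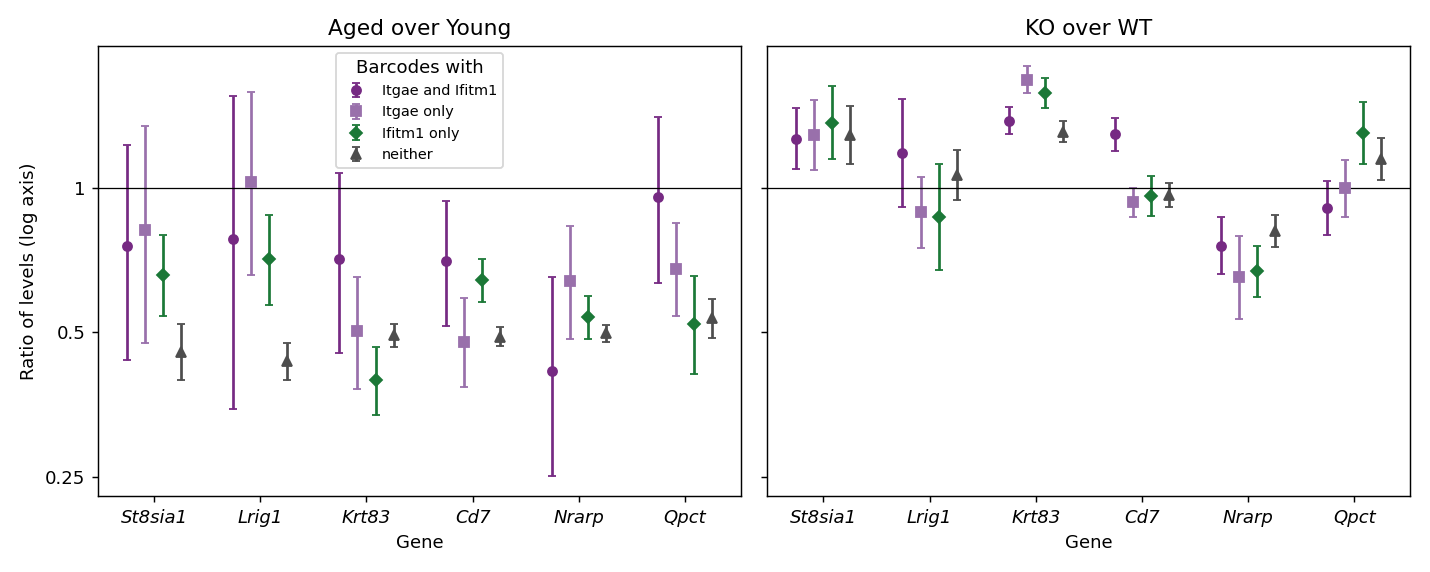
Ratio of levels (log axis) in barcodes with Itgae and Ifitm1, Itgae only, Ifitm1 only or neither, Aged over Young and KO over WT, with 95% counting intervals; the line marks a ratio of 1. With neither gene all 6 Aged to Young ratios lie between 0.435 and 0.535, and intervals are wide where both genes were seen (55 Aged barcodes).

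Co-detection was measured in barcodes thinned to 2000 UMIs as the share of barcodes with Itgae or Ifitm1, in those with a member and in those without it. The St8sia1 and Ifitm1 pair stood apart in all 4 libraries. Ifitm1 was in 27.0% (19.5 to 35.6) of Aged barcodes with St8sia1 and 6.46% (5.93 to 7.02) of those without, and in 40.0% (34.9 to 45.2) and 17.2% (16.4 to 18.0) of the same Young barcodes. It was in 47.5% with St8sia1 and 32.8% without in KO, and in 34.5% and 20.7% in WT. With Lrig1 the Aged library differed from the KO and WT ones. Ifitm1 was more frequent with Lrig1 in Aged (12.0% with and 6.60% without), yet less frequent with it in KO (23.6% and 33.7%) and in WT (10.3% and 21.6%). In Young the shares of 15.8% with Lrig1 and 18.3% without had overlapping intervals. In all, Ifitm1 was more frequent, with intervals apart, in barcodes with 3 of the 6 members in Aged (3.3% of all genes did so), 2 in Young (4.55%), 2 in KO (5.76%) and 3 in WT (5.33%).

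Itgae gave a different picture. It was seen in only 70 of 8051 thinned Aged barcodes, and no member there had intervals apart (1.08% of all genes did). In Young, 3 members did so (3.72% of all genes): St8sia1 (7.67% with and 3.57% without), Qpct (6.44% and 3.55%) and Cd7 (5.78% and 3.30%). In KO, 4 members did so (3.99% of all genes), and in WT all but Nrarp, 5 of 6 (3.42% of all genes). The clearest were Cd7 in KO, with Itgae in 22.6% (19.9 to 25.3) of barcodes with it and 12.2% of those without, and Qpct in WT, with 22.8% (19.2 to 26.7) and 11.7%. Krt83 was associated with Itgae in KO (19.6% and 11.9%) and WT (19.8% and 10.9%) but not in Young (3.44% and 3.78%). Nrarp went the other way, with Itgae in 2.23% of Young barcodes that had it and 4.18% of those that did not, and in 9.32% and 13.6% in KO. In Aged and Young, Itgae and Qpct were also seen in barcodes with myeloid markers. The part of such cells in the co-detection of Qpct with Itgae was not tested.

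**Figure D4:**
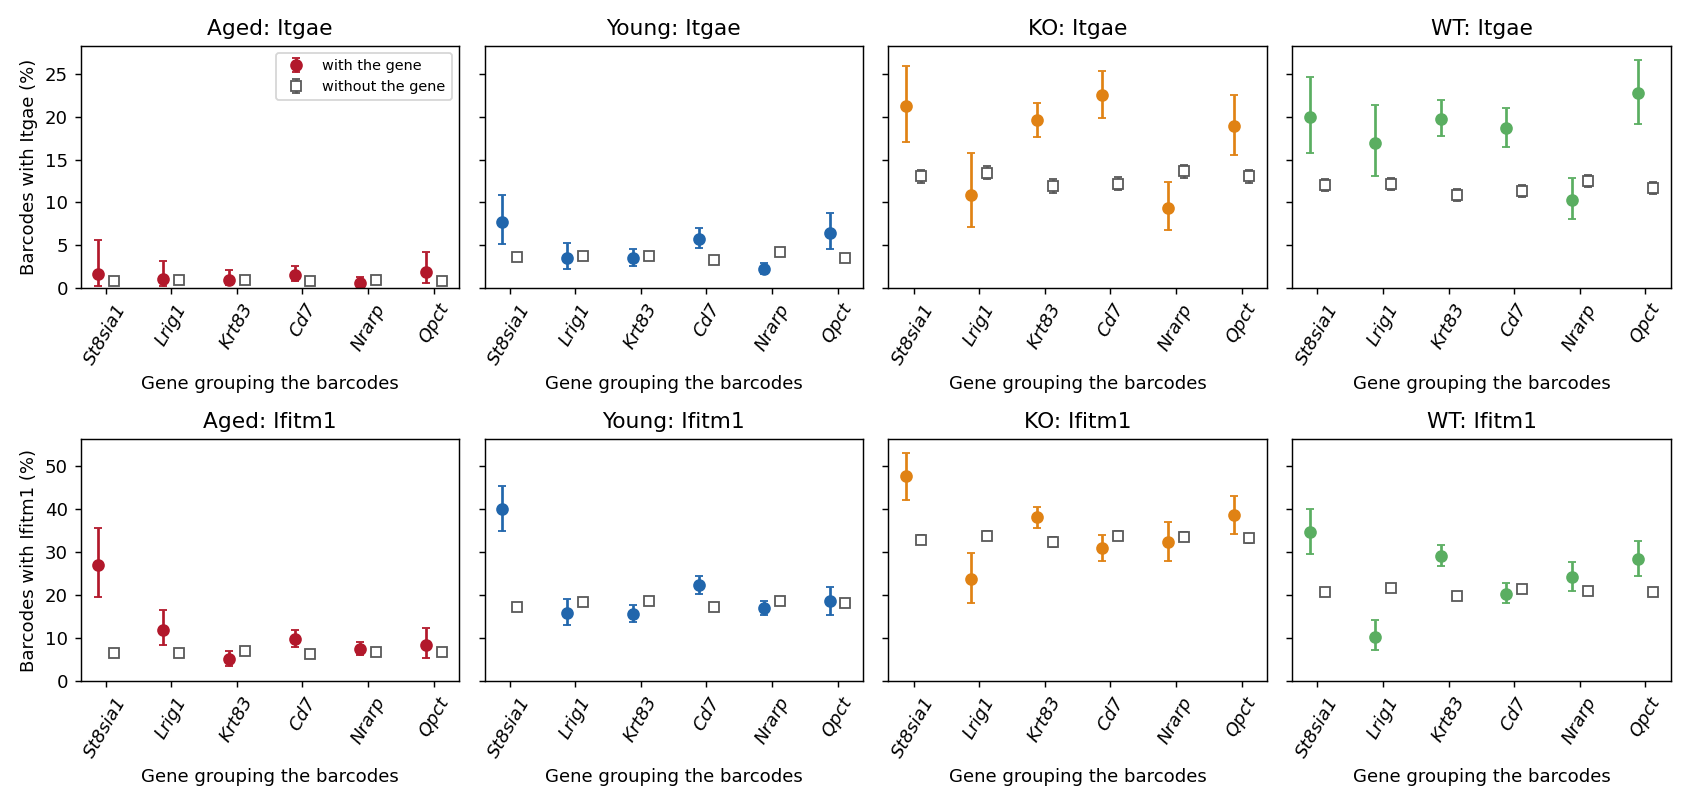
Share of barcodes with Itgae (upper row) or Ifitm1 (lower row), in percent, among barcodes with each member (filled circles) and without it (open squares), thinned to 2000 UMIs, with 95% exact binomial intervals, for Aged, Young, KO and WT. Ifitm1 is more frequent with St8sia1 in all 4 libraries, and Itgae is less frequent with Nrarp in Young (2.23% and 4.18%) and KO (9.32% and 13.6%).

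Barcodes with at least 2 members were about as frequent as, or slightly more frequent than, the products of the single shares, and those with at least 3 were further above them. At least 2 of the 6 were in 6.41% of Aged and 15.4% of Young thinned barcodes, where the products of the single shares give 5.76% in Aged and 15.2% in Young. In KO and WT the values were 8.68% in each, beside products of 7.71% in KO and 8.00% in WT. At least 3 were in 0.633% of Aged (51 barcodes) and 2.57% of Young, beside products of 0.458% in Aged and 2.26% in Young. For KO it was 0.974% (79 barcodes) beside 0.733%, and for WT 1.17% (104 barcodes) beside 0.806%. One pair exceeded its product in all 4 libraries with the interval above 1, namely Krt83 with Qpct. It was 2.00 times the product in Aged (1.45 to 2.69, 43 barcodes), 1.34 in Young (1.11 to 1.61, 118 barcodes), 1.34 in KO (1.12 to 1.59) and 1.56 in WT (1.30 to 1.86). St8sia1 with Lrig1 ran from 1.49 to 2.12 times the product, on 8 Aged, 36 Young, 15 KO and 26 WT barcodes, with intervals that include 1 in Aged (0.800 to 3.65) and KO (0.902 to 2.66). Nrarp with Lrig1 stood at 0.529 times the product in WT (0.282 to 0.904, 13 barcodes). In KO it stood at 0.503 (0.184 to 1.09, 6 barcodes), with an interval that includes 1. In Aged and Young it was near the product, at 1.17 in Aged and 1.05 in Young.

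Genes of the pathway and T cell state lists were then searched for shares that differed between barcodes with and without a member, intervals apart and in the same direction in all 4 libraries. This criterion was chosen after values had been seen. Of 122 list genes, 6 were more frequent with St8sia1 and 2 less (over 7928 genes, 0.101% and 0.114%). The frequent ones were Ifitm1, Ifitm2, Ifitm3, the IL-7 receptor gene Il7r, the memory transcription factor gene Tcf7 and Ldlrad4, a negative regulator of TGF-beta signalling. Il7r was in 35.7% of Aged barcodes with St8sia1 and 14.6% of those without, and in 29.6% with it and 17.6% without in Young. The inhibitory receptor genes Lag3 and Pdcd1 were the less frequent ones. Lag3 was in 6.3% of Aged barcodes with St8sia1 and 22.9% of those without, and in 1.6% with it and 7.2% without in Young.

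Nrarp also stood against inhibitory receptor genes. Of the 122, 6 were less frequent with it and 2 more (0.252% and 0.189% of all genes). The less frequent ones were Ctla4, Havcr2, Lag3, Pdcd1, the residency receptor gene Cxcr6 and the integrin gene Itgav. Pdcd1 was in 34.2% of Aged barcodes with Nrarp and 42.7% of those without, and in 22.7% with it and 29.0% without in Young. S1pr1, whose product guides T cells out of tissues, was more frequent, in 22.4% with Nrarp and 14.1% without in Aged, and in 21.7% with it and 16.5% without in Young. Smad7, the inhibitory Smad, was the other. In the library totals Lag3 stood at 186 CPM in Aged against 52.4 CPM in Young, and Pdcd1 at 483 CPM in Aged against 237 CPM in Young.

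The number of such partners depends on the number of positive barcodes, so it does not rank the members. In Young, thinned, 1368 barcodes held Krt83, 2112 Nrarp, 608 Lrig1 and 365 St8sia1. Krt83 had 11 partners more frequent and 1 less (0.631% and 0.139% of all genes). The more frequent ones held genes induced by receptor stimulation or seen in resident cells (Cd69, Rgs1, Nr4a1, Nr4a3, Itgb7, Litaf), genes that restrain TGF-beta signalling (Smad7, Skil, Ldlrad4), Qpct, and St6galnac3, a sialyltransferase of gangliosides. Cd69 was in 61.7% of Aged barcodes with Krt83 and 51.8% of those without, and in 59.1% with it and 54.6% without in Young. The less frequent gene was Ugcg, which makes glucosylceramide, the first step of ganglioside synthesis. Cd7 had 4 and 1 (0.0883% and 0.0631% of all genes), with Klf2, S1pr1, Cd160 and Itgb7 more frequent and Rbpj, the DNA-binding partner of Notch, less. Lrig1 had Bach2 and Ldlrad4 more frequent and Havcr2 less (0.0883% and 0.0631% of all genes). Qpct had Krt83 and the E-cadherin gene Cdh1 more frequent and no gene less (0.0757% and 0.0378%), with Cdh1 in 8.1% of Aged barcodes with Qpct and 4.3% of those without, and in 7.3% with it and 4.4% without in Young.

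Across all genes, likeness to a member was measured in Aged and Young as the share of barcodes with a gene among those with the member, over that among those without, taking the lower of the libraries' ratios. For St8sia1 the closest were Dapl1 (3.06), Ccne2 (2.37) and Ifitm1 (2.32). For Lrig1 they were Ap4m1 (2.35), Nsg2 (1.95) and Meis3 (1.85), and for Krt83 Serpinb1a (2.63), Src (1.90) and Ly6g5b (1.80). Serpinb1a, an inhibitor of neutrophil proteases, was in 13.1% of Aged barcodes with Krt83 and 4.98% of those without, and in 6.29% with it and 2.30% without in Young. For Cd7 they were Tnfrsf13c (1.78), Spats2 (1.54) and Cd1d1 (1.5), for Nrarp Gas7 (1.60), Oprm1 (1.48) and Cnnm4 (1.46), and for Qpct Tmem41a (1.88), Akr1c13 (1.86) and Zfp831 (1.85). Most of these genes were in few barcodes, so the ratios describe these libraries alone.

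Most genes of the lists around the members were not lower in Aged by 1.5 times. The members on these lists were chosen because they were lower, so their own place in the counts was fixed beforehand. Of all measured genes 3.83% were at least 1.5 times lower. In the Notch list, 22 of 36 genes were measured, and Nrarp was the single one at least 1.5 times lower. Of the 21 others 0 were. Notch1 itself was higher, at 46.0 CPM in Aged against 28.7 CPM in Young, a ratio of 1.61, and the list median was 0.06 on the log2 scale. In the other pair Dtx1, a Notch regulator, was the lowest of the list at 6.25 CPM in KO against 10.8 CPM in WT, a ratio of 0.580, and Maml2, a Notch coactivator, the highest at a ratio of 1.21. Of 14 measured ganglioside genes (of 21), 3 (2 of 13 without St8sia1) were at least 1.5 times lower in Aged and none higher. These were St8sia1 and the lysosomal lipid-handling genes Psap (253 CPM in Aged, 564 CPM in Young) and Gm2a (70.1 CPM in Aged, 118 CPM in Young), whereas B4galnt1, which competes with St8sia1 for GM3, stood at 263 CPM in Aged against 249 CPM in Young. Genes of other cell types moved with these lysosomal genes: 7 monocyte or macrophage markers summed to 62.2 CPM in Aged and 99.4 CPM in Young, all seen in both, and 5 dendritic cell markers to 10.1 CPM in Aged, with 1 at 0, and 40.3 CPM in Young. Their part in the levels was not tested. The highest ratio was that of B3galt4, at 1.38, and the list median was −0.12 on the log2 scale.

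Of 14 Lrig and ErbB genes, 4 were measured. Hbegf, an ErbB ligand, was lower beside Lrig1, at 7.31 CPM in Aged against 20.2 CPM in Young, and Lrig2 had a ratio of 1.13. Hbegf was also lower in KO, at 14.8 CPM against 53.1 CPM in WT, while the ErbB ligand Areg was higher, at 44.6 CPM in KO against 19.8 CPM in WT. Summed tumour or epithelial markers in the gate ran the same way as Hbegf. They stood at 48.8 CPM in Aged and 192 in Young, and at 114 in KO and 346 in WT. The part of such cells in the Hbegf levels was not tested. Among 13 measured lymphocyte receptors (of 16), only Cd7, which this contrast chose, was at least 1.5 times lower in Aged. Of the 12 others 0 were, beside 3.83% of all measured genes, and Cd2 was the highest at a ratio of 1.38. Cd5 was the highest of these in KO, at a ratio of 1.34. Qpct had 1 measured relative on its list, Cd47, a substrate of the related enzyme, which stood at 624 CPM in Aged against 615 CPM in Young.

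Lists of T cell state, chosen with earlier results of these data known, were set beside these differences. Over all measured genes 3.83% were at least 1.5 times lower in Aged and 2.62% at least 1.5 times higher. Of 19 measured residency genes (of 22), 6 were at least 1.5 times lower in Aged and 1 higher, from Itgae to Prdm1 at a ratio of 1.53, with a median log2 ratio of −0.20. The 6 included Itgae and Ifitm1, which were set beside the members from the start, and Ifitm2 and Ifitm3 of the Ifitm1 family. Of 17 egress and naive or memory genes (of 18), 4 were lower and 1 higher (median −0.31), from Id3 (11.2 CPM in Aged, 23.9 CPM in Young) to Cd27 (166 CPM in Aged, 90.3 CPM in Young). Of 15 measured inhibitory receptor and exhaustion genes (of 16), 1 was lower (Nr4a1, a ratio of 0.537) and 9 were higher, up to Lag3 at 3.55, with a median of 0.69. None of 16 measured TGF-beta genes (of 24) passed that fold (median −0.25), with ratios between 0.682 (Tgif1) and 1.29 (Tgfbr3). In KO against WT the ends of these lists were Ahr (0.694) and Ifitm1, Klf2 (0.617) and Il7r (1.37), Cd38 (0.604) and Cd101 (1.49), and Smad1 (0.776) and Tgif1 (1.37).

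The transferred cells were last split by T cell receptor beta variable segment (Trbv), which the immune profiling kit reads in the transcript. Each barcode was assigned to the segment with the most UMIs, and 12 segments held at least 100 barcodes in both libraries. Cd7 and Qpct were lower in Aged in 12 of 12 segments, St8sia1 in 11, and Lrig1, Krt83 and Nrarp in 10. The interval lay below 1 in 11 segments for Cd7, 10 for St8sia1 and Lrig1, 9 for Nrarp, 8 for Krt83 and 7 for Qpct. It lay above 1 in 1 segment for St8sia1 and 2 for Krt83. Of all measured genes 8.13% were lower in Aged in at least 10 segments. The segments divide the barcodes of the contrast that chose the members, so nothing is read from these counts. The exceptions were large for St8sia1 and Krt83. In Trbv13-2 barcodes St8sia1 stood at 26.6 CPM in Aged against 10.2 CPM in Young, a ratio of 2.60 (1.81 to 3.72), while in Trbv1 barcodes it stood at 3.60 CPM in Aged and at 29.2 CPM in Young, a ratio of 0.123 (0.0681 to 0.214). Krt83 in Trbv1 barcodes stood at 109 CPM in Aged against 63.3 CPM in Young, a ratio of 1.73 (1.41 to 2.13), and in Trbv2 barcodes at 29.9 CPM in Aged and at 148 CPM in Young. St8sia1 and Krt83 thus ran in opposite directions in Trbv1 barcodes. Whether the members followed each other over all segments was not tested.

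Trbv12-1, the most frequent segment in Aged, held 2021 Aged barcodes (24.5%) and 1232 Young barcodes (12.6%). Nrarp there stood at 47.9 CPM in Aged against 197 CPM in Young, the lowest of its segment ratios at 0.244 (0.224 to 0.265). In Trbv1 it was the same in both libraries, at 146 CPM in Aged against 145 CPM in Young, and in Trbv19 it stood at 70.2 CPM in Aged and at 63.7 CPM in Young. With Trbv12-1 left out, the Nrarp ratio of all other barcodes was 0.657. Leaving out each segment in turn, the ratios ran from 0.377 to 0.461 for St8sia1, 0.465 to 0.559 for Lrig1, 0.429 to 0.581 for Krt83, 0.489 to 0.570 for Cd7, 0.493 to 0.657 for Nrarp and 0.452 to 0.501 for Qpct. Clones within a segment were not resolved here, and the mice pooled in a library cannot be told apart.

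**Figure D5:**
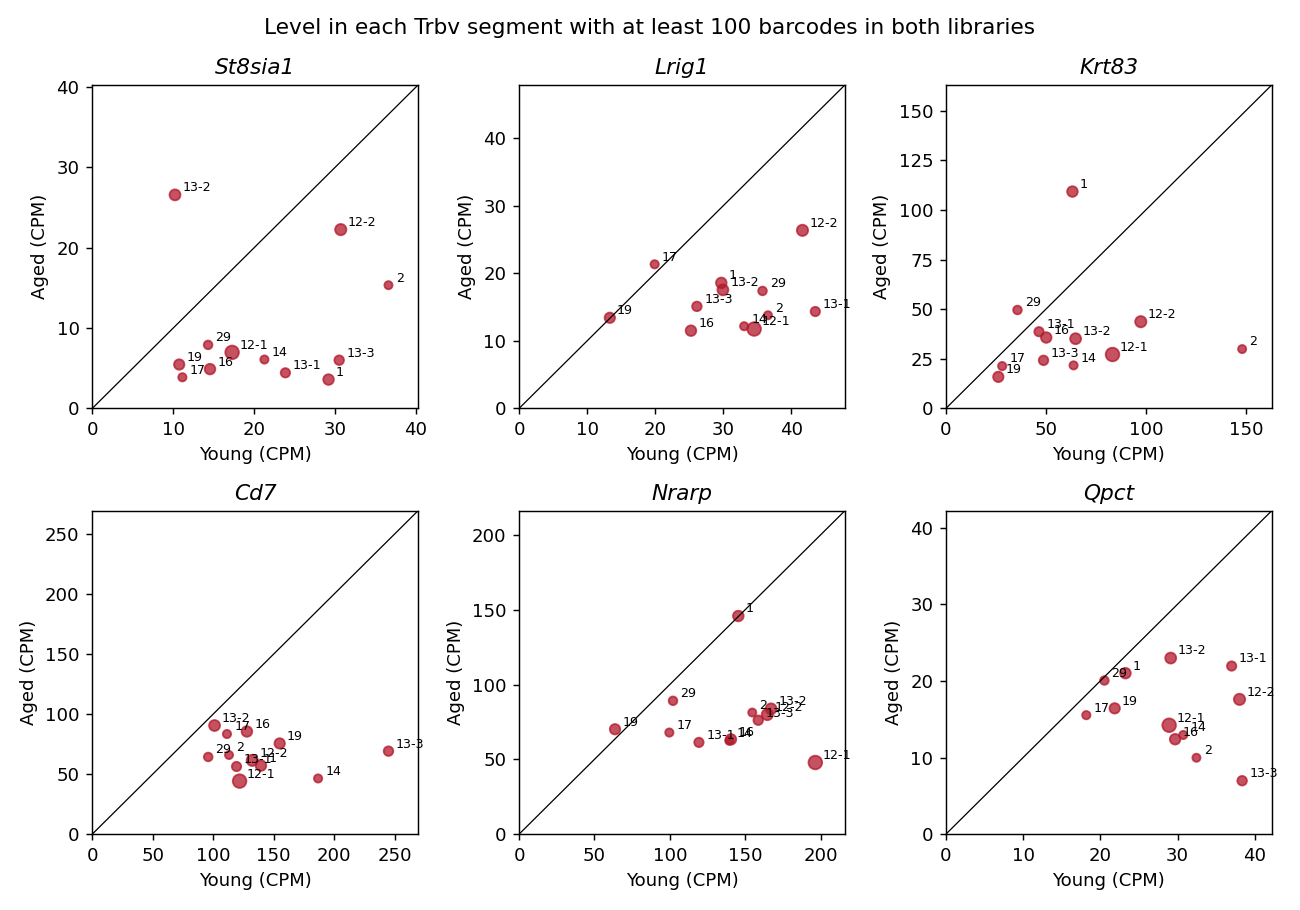
Level of each member in Aged (vertical axis, CPM) against Young (horizontal axis, CPM) in each of 12 Trbv segments, named without the prefix; the area of a point grows with its number of barcodes and the line marks equal levels. Points lie mostly below the line, with St8sia1 in 13-2 (26.6 CPM in Aged, 10.2 in Young) and Krt83 in 1 (109 CPM in Aged, 63.3 in Young) above it.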

How the data were processed

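Per the file headers, the authors deposited whole-number UMI counts per gene and barcode from Cell Ranger (6.1.1 for KO and WT, 7.1.0 for Aged and Young). According to the submitters' processing notes, mm10, Cell Ranger 6.0.0 and Seurat 3.2.3 were used, so the version is not settled. Nothing used here gives the calling of cells or the treatment of introns and strand. Per the labels, KO and WT were made with a 3' kit and Aged and Young with an immune profiling kit. Groups came from the labels.

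Barcodes were kept with at least 1000 UMIs, 500 genes and at most 10% mitochondrial UMIs, then with CD3 and CD8 UMIs. No doublet caller was run, and leaving out the 8% of barcodes with most UMIs was an alternative. Levels carry exact Poisson intervals, ratios exact conditional binomial intervals and shares Clopper-Pearson intervals, all for counting error only. With 1 library per group no test between groups was made. The members and lists were chosen with earlier results of these data known. Named genes are the members, Itgae, Ifitm1, the ends of each list by ratio and the 3 genes most like each member; others in the text were chosen after their values were seen. Alternatives changed the gate, depth, weighting, scaling (median of ratios), pseudocount (5 CPM) and filter. Scripts were tested on simulated data and used Python 3.11.15, numpy 2.4.6, scipy 1.17.1 and pandas 2.3.3.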

Additional observations from a re-analysis of the deposited data

How the results depend on the processing

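No ratio of the 6 members' library totals past 1.5 times changed direction under the alternatives tried. Over 16 settings the Aged to Young ratios stayed between 0.388 and 0.691 for St8sia1, 0.460 and 0.686 for Lrig1, 0.477 and 0.598 for Krt83, 0.475 and 0.579 for Cd7, 0.497 and 0.657 for Nrarp, and 0.450 and 0.715 for Qpct. The members' median log2 ratio of −0.97 became −0.92 without the 8% of barcodes with most UMIs, −0.88 with barcodes weighted equally, −0.86 with Trbv segments weighted equally, −0.80 without Trbv12-1 and −0.87 with a pseudocount of 5 CPM. With the 4 classes of Itgae and Ifitm1 weighted equally it was −0.65, and 3 members were at least 1.5 times lower. For KO over WT the median of 0.03 became 0.12 over all barcodes past the filters and −0.060 without barcodes with markers of other cell types, which turns its sign at a size near 0. Krt83 was the 1 member at least 1.5 times higher in KO over all barcodes past the filters, and again the 1 member with the classes weighted equally. The counts over all genes depended on the filter. Thinned to 2000 UMIs, 163 genes were at least 1.5 times lower and 235 higher in Aged, and 89 lower and 42 higher in KO; with no filter on low counts, 5703 were lower and 2773 higher in Aged, and 4954 lower and 2230 higher in KO. The members' co-detection counts changed with depth. In Aged, 5 members had Itgae more often without thinning and 1 at 4000 UMIs, and 5 had Ifitm1 more often without thinning; in Young it was 4 for Ifitm1 without thinning. Deeper barcodes hold more of every gene, so the unthinned values are not depth-matched. The share of all genes was not counted without thinning or at 4000 UMIs, so these counts cannot be judged against it. Alternatives that leave out Trdc or Foxp3 barcodes, shared barcodes, each Trbv segment other than Trbv12-1, or unassigned barcodes were chosen after seeing the data. No paired analysis was possible because each group had 1 library. The variation between mice could not be measured at any depth.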

Other observations

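Barcodes outside the T cell gate also held members. In barcodes with Ncr1 or Klrb1c, markers of NK cells, and no CD3 or CD8 UMI, Cd7 stood at 448 CPM in Aged (9 barcodes) and 404 CPM in Young (50 barcodes), and Nrarp at 215 CPM in Aged against 339 CPM in Young. Both were above the level in the CD3 and CD8 positive barcodes of the same library, while St8sia1 was in 0 of 9 in Aged and 0 of 50 in Young, which allows a share of up to 33.3% in Aged and 6.00% in Young at 2000 UMIs. In the same kind of barcode Krt83 stood at 527 CPM in KO (11 barcodes) and 171 CPM in WT (19 barcodes).

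Within the gate, the 229 WT barcodes with Trdc held Nrarp at 83.9 CPM and Cd7 at 117 CPM, beside 40.0 CPM of Nrarp and 85.9 CPM of Cd7 over all WT barcodes of the gate. The 43 KO barcodes with Trdc held Nrarp at 24.5 CPM, beside 30.3 CPM over all KO barcodes. The barcodes with Foxp3 held St8sia1 at 5.93 CPM in KO (123 barcodes) and 3.39 CPM in WT (79 barcodes), below the 21.6 CPM of all KO and 16.2 CPM of all WT barcodes of the gate, and Nrarp at 10.2 CPM in KO against 13.6 CPM in WT. In barcodes with myeloid markers and no CD3 or CD8, Qpct stood at 82.6 CPM in Aged (13 barcodes) and 86.0 CPM in Young (21 barcodes). Without barcodes with a Trdc or Foxp3 UMI the KO to WT ratio of Nrarp was 0.802.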
